A study of Mus musculus with 2 samples.

Results

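The genes described here are 10 that code for proteins of lipid storage and handling, Plin2, Pnpla2, Hilpda, Acsl1, Acot1, Fabp4, Fabp5, Lpl, Apoe and Abcg1. They were found by gene symbol among the 32285 genes listed in both matrices, and every one of the 10 was listed. The list was selected from results already obtained on the same libraries, so that the levels and ratios below are a description and no test was made on them. Acot1 was known from those results to have one of the lowest ratios in neutrophils.

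Cells keep fatty acids and cholesterol as neutral lipids in cytoplasmic droplets. Fatty acids enter a cell after lipoprotein triglyceride is cut at the cell surface, travel bound to small carrier proteins, are activated to acyl-CoA, and are then esterified into droplets or oxidised, while cholesterol leaves on apolipoprotein particles through membrane transporters. In the lung, alveolar macrophages clear surfactant lipid, type 2 epithelial cells make it, lipofibroblasts store neutral lipid, and capillary endothelium takes up fatty acids from blood.

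The data are single-cell RNA sequencing libraries of whole lungs of female BALB/cJ mice aged 12 weeks. All mice in both groups had been inoculated with 100000 4T1 cells, a mouse mammary carcinoma line that spreads to the lung. One group received saline and the other drug-free nanoparticles (NP) of poly(lactide-co-glycolide), both intravenously, every 3 days from day 1 for 5 doses, and lungs were taken on day 14. Lungs of 4 mice were pooled for each library according to the labels (the methods of the study give another number), and red blood cells were lysed. There was no tumor-free group, so every value below comes from a tumor-bearing lung, and no cell was sorted by lineage.

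There was 1 library per group. The difference between saline and NP therefore has no replicate check, and no p-value or SE is given anywhere in the report. Bracketed ranges are exact 95% counting intervals on the unique molecular identifiers (UMIs), and they cover counting error only, not the spread between mice or between libraries. The saline library held 91168129 UMIs and the NP library 90081747. A barcode was taken as a cell where it had between 500 and 5000 detected genes and where mitochondrial genes made up less than 7.5% of its UMIs, which left 8662 cells for saline and 8333 for NP, with medians of 6474.5 and 6008 UMIs. The median mitochondrial share was 1.31% for saline and 2.66% for NP, and 21 barcodes occurred in both libraries.

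Cells were clustered without any of the lipid genes and named from fixed marker genes. This gave 5611 saline and 3096 NP neutrophils, 784 and 1485 monocytes, 165 and 221 alveolar macrophages, 15 and 35 interstitial macrophages, 429 and 1535 endothelial cells, 127 and 270 stromal cells (fibroblasts and mural cells), and 54 and 50 epithelial cells. The summed level of a class's own markers is given as counts per 1000000 UMIs (CPM). The same markers named the classes, so these sums describe the classes and do not check their names. All 15 neutrophil markers were detected in neutrophils, with sums of 325253 CPM for saline and 346474 CPM for NP, as were all 13 monocyte markers in monocytes (5869 and 6474 CPM) and all 16 endothelial markers in endothelial cells (24432 and 23103 CPM). The sums differed more in epithelial cells, 404083 CPM for saline and 250165 CPM for NP. For fibroblast markers in stromal cells they were 18020 and 11235 CPM, and for mural markers 1766 and 3585 CPM. The make-up of the epithelial class differed between the libraries. Scgb1a1, a club cell secretory gene, was at 287678 CPM for saline and 22723 CPM for NP, and Sftpc, the surfactant protein C gene of type 2 cells, at 90312 and 181019 CPM. Of 54 saline epithelial cells 25 had more Sftpc than Scgb1a1 UMIs, and of 50 NP cells 44 did. Each measured epithelial ratio of the 10 genes is given below for these cells as well. Interstitial macrophages were few, and summed neutrophil markers in them were 15516 CPM for saline (14 of 15 detected) and 848 CPM for NP (13 of 15), whose part in the ratios of that class was not tested. In alveolar macrophages summed neutrophil markers were 7831 CPM for saline and 5659 CPM for NP, beside 6539 and 6750 CPM of their own markers. In monocytes summed neutrophil markers were 5739 and 3397 CPM, and in endothelial cells 22451 and 4803 CPM. Their part in the ratios of alveolar macrophages, monocytes and endothelial cells was not tested either. Levels below are pooled over the cells of a class as CPM. The UMIs were counted from tags at one end of each transcript and were not scaled to length, so that no level of one gene is compared with that of another.

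A ratio is the NP level over the saline level on the log2 scale, with any count under 3 set to 3, and it was read only for a gene with at least 50 UMIs in the class over both libraries. A ratio is called apart where the levels differ by at least 2-fold. In neutrophils 9 of the 10 genes were measured, with 1 higher and 1 lower by this rule, where 2.81% and 1.76% of the 9557 genes measured in the class were higher and lower. In monocytes all 10 were measured, with 1 higher and 1 lower, against 2.46% and 0.743% of 10230 genes. In alveolar macrophages all 10 were measured and none was 2-fold apart, where 0.534% of 8423 genes were higher and 0.392% lower. Of the 4 genes measured in interstitial macrophages none was 2-fold apart, where 2.71% of 1808 genes were higher and 2.54% lower. Of the 9 genes measured in endothelial cells none was apart either, where 1.54% of 9614 genes were higher and 1.29% lower. In stromal cells 8 were measured, with 1 higher and 2 lower, against 4.76% and 2.09% of 6939 genes. In epithelial cells 5 were measured, with 2 higher and 0 lower, against 12.5% and 2.49% of 3258 genes.

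The genes did not move as a block. Their median log2 ratio was -0.54 in neutrophils, where the median over all measured genes was -0.13, and it was 0.01 in alveolar macrophages, where that over all genes was -0.04. In monocytes it was -0.08 against -0.03, in endothelial cells -0.29 against -0.03, and in stromal cells -0.27 against 0.02. In epithelial cells it was 0.68 against 0.36, and in interstitial macrophages, with only 4 of the genes measured, -0.58 against -0.02. Within monocytes the single ratios ran from -1.62 to 2.60.

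**Figure D1:**
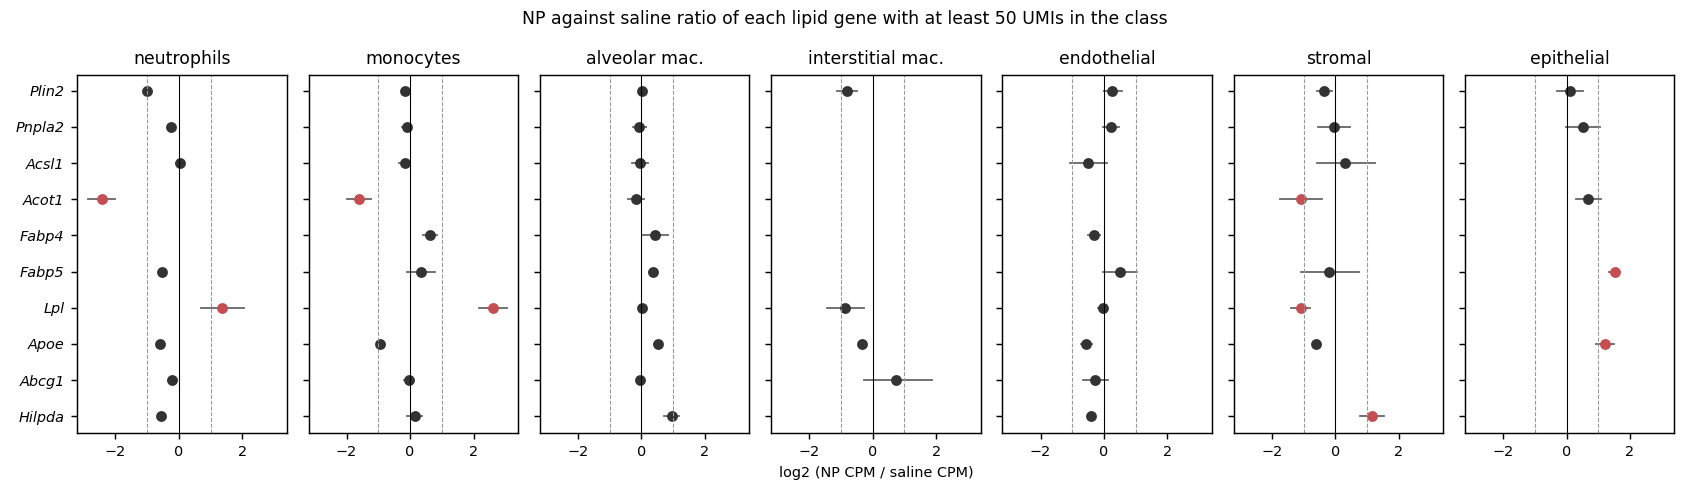
Log2 ratio of the NP level to the saline level (x axis) for each of the 10 genes with at least 50 UMIs in a class, in each of the 7 classes, with exact 95% counting intervals as lines, dashed lines at 2-fold and red points for genes at least 2-fold apart. Acot1 lies left of the lower line in neutrophils (-2.43), monocytes (-1.62) and stromal cells (-1.07, but -0.71 with equal weight per cell), and Lpl lies to the right in monocytes (2.60) and to the left in stromal cells (-1.09).

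Plin2 codes for perilipin 2, the coat protein found on lipid droplets of most cells outside adipose tissue. The gene spans chr4:86648386-86670060 (GRCm38, minus strand). In neutrophils its level was 336 CPM for saline and 169 CPM for NP, a log2 ratio of -0.99 [-1.04 to -0.94], just short of 2-fold. In the other classes the Plin2 ratios were closer to 0. In monocytes the Plin2 level was 308 CPM for saline and 274 CPM for NP (-0.17 [-0.23 to -0.11]). In alveolar macrophages, which had the highest Plin2 level of the 7 classes in both libraries, it was 1497 and 1505 CPM (0.01 [-0.05 to 0.06]). The 15 saline and 35 NP interstitial macrophages came next, at 759 and 430 CPM (-0.82 [-1.14 to -0.49]). Stromal cells had 300 CPM for saline and 234 CPM for NP (-0.35), and endothelial cells 74.4 and 89.6 CPM (0.27, with an interval that included 0). With the NP clusters weighted to the saline mix of clusters, the stromal Plin2 ratio was -0.02. Epithelial cells had 129 and 138 CPM of Plin2 (0.10), but among those with more Sftpc than Scgb1a1 the direction turned, with 222 CPM for saline and 144 CPM for NP (-0.62).

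The order of the classes by Plin2 differed between the libraries. In saline, neutrophils came after the macrophage classes and above monocytes and stromal cells. The stromal interval (262 to 342 CPM) overlapped those of both neutrophils (331 to 342 CPM) and monocytes (298 to 318 CPM), so the place of stromal cells was not resolved. In NP, neutrophils stood below both monocytes and stromal cells, and the neutrophil interval overlapped that of epithelial cells. Of all Plin2 UMIs in cells, neutrophils held 62.0% in saline and 21.7% in NP, while alveolar macrophages held 16.6% and 34.3% and monocytes 13.8% and 31.9%. These shares follow the number of cells of each class as well as the level in each cell.

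The difference in neutrophils was present in each of the 6 neutrophil clusters, with ratios from -1.61 to -0.57 and intervals that all lay below 0. The cluster led by Stfa2l1 and Stfa2, with 1434 saline and 297 NP cells, had the lowest ratio, from 522 to 171 CPM. Cells of the cluster led by Hist1h4i and Il1b, the largest in saline with 1881 cells against 769, had 565 and 316 CPM. In the cluster led by the interferon-induced genes Isg15 and Gbp2b, with 103 saline and 849 NP cells, the level was 325 and 219 CPM. Neutrophils of the cluster led by Ngp, Ltf and Camp, which code for granule proteins of developing neutrophils, had 163 and 95.6 CPM. The mix of clusters differed between the libraries, yet each cluster alone had the lower Plin2 level in NP.

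A lower share of neutrophils held any Plin2 UMI in NP. The share was 74.0% for saline and 54.7% for NP at median depths of 6042 and 5239 UMIs. After every cell was thinned to 1000 UMIs, which left out 8 saline and 1 NP neutrophils, it was 29.4% and 16.4%. In B cells, which are not known as lipid-storing cells, 7.98% of saline and 6.02% of NP cells held a UMI at medians of 4383.5 and 4468 UMIs. The neutrophil share stood above the B cell share in both libraries.

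**Figure D2:**
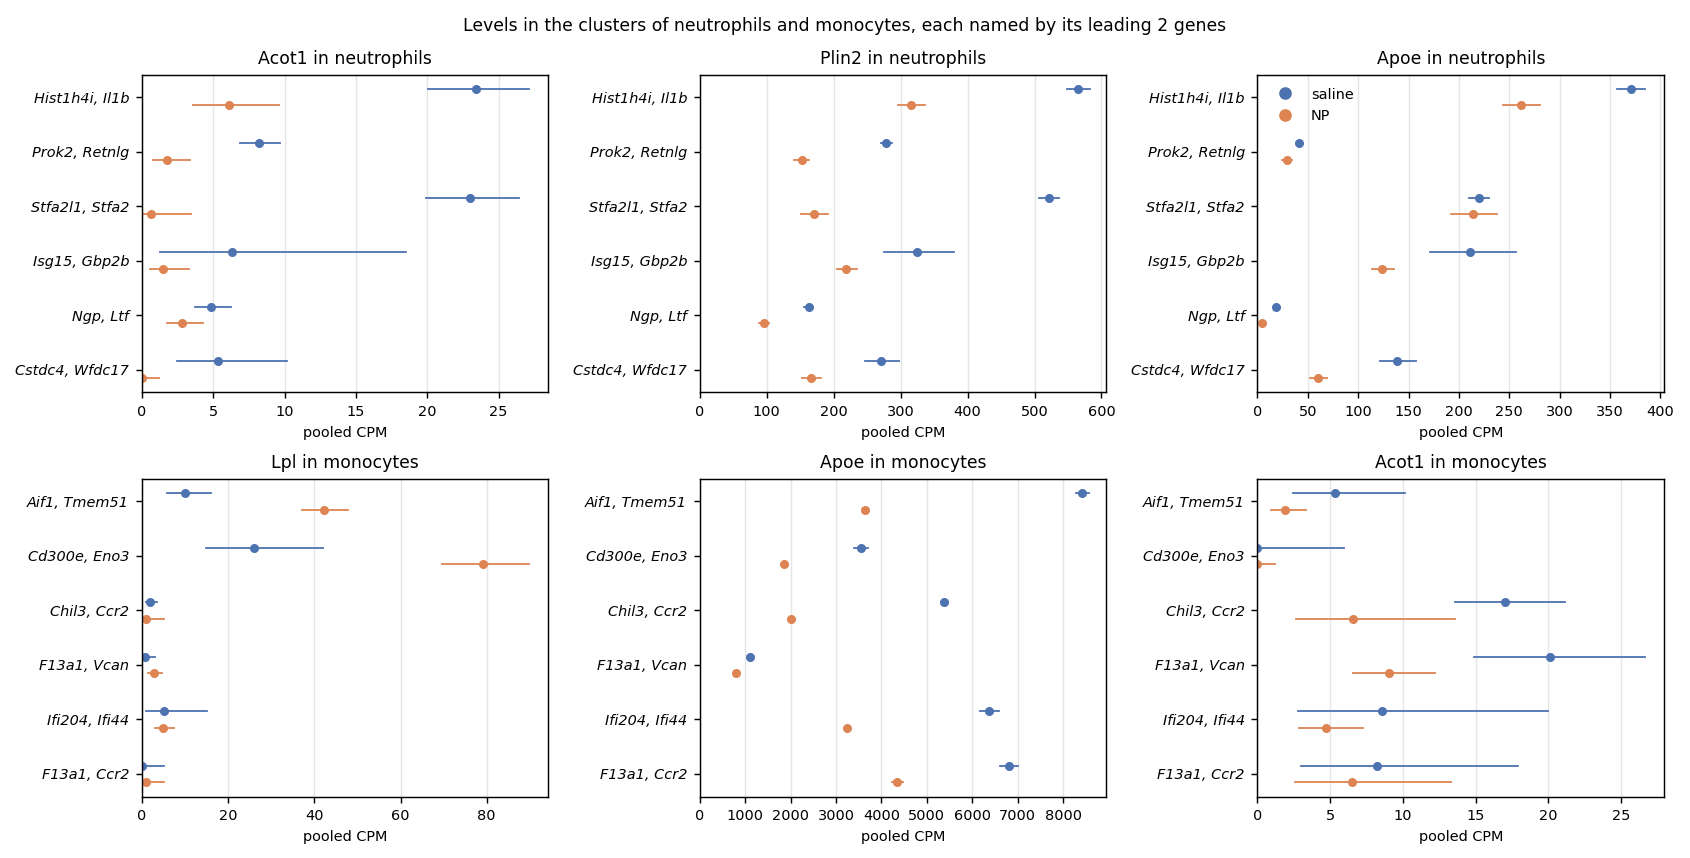
Pooled level in CPM (x axis, linear) of Acot1, Plin2 and Apoe in the 6 neutrophil clusters and of Lpl, Apoe and Acot1 in the 6 monocyte clusters with at least 30 cells in both libraries, each cluster named by its leading 2 genes, with points for saline (blue) and NP (orange) and exact 95% Poisson intervals as lines. The NP point lies below the saline point for Plin2 in every neutrophil cluster, from 522 to 171 CPM in that led by Stfa2l1 and Stfa2, and for Apoe in every monocyte cluster, from 8419 to 3639 CPM in that led by Aif1 and Tmem51.

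Pnpla2 codes for adipose triglyceride lipase, which takes the first fatty acid off stored triglyceride. The gene spans chr7:141455198-141460743 (GRCm38, plus strand). The Pnpla2 level differed little between the libraries. In neutrophils it was 118 CPM for saline and 101 CPM for NP (-0.23 [-0.30 to -0.16]), lower in NP in 6 of 6 clusters, with intervals below 0 in 4. In monocytes it was 68.2 and 63.0 CPM, and in alveolar macrophages 109 and 104 CPM. In endothelial cells it was 100 and 116 CPM, and in stromal cells 65.5 and 63.3 CPM. Outside neutrophils every measured interval for Pnpla2 included 0. Epithelial cells had 66.7 and 94.6 CPM of Pnpla2 (0.50 [-0.03 to 1.06]), and among those with more Sftpc than Scgb1a1 the direction turned, with 123 and 98.9 CPM (-0.31).

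Hilpda codes for the hypoxia-inducible lipid droplet-associated protein, which binds and inhibits the lipase encoded by Pnpla2. The gene spans chr6:29272488-29275446 (GRCm38, plus strand). Endothelial cells had the highest Hilpda level of the 7 classes, 881 CPM for saline and 657 CPM for NP (-0.42 [-0.51 to -0.34]). In neutrophils it was 59.5 and 40.3 CPM (-0.56 [-0.67 to -0.46]). Alveolar macrophages went the other way, with 63.8 CPM for saline and 123 CPM for NP (0.95 [0.70 to 1.20]), as did stromal cells, with 97.7 and 217 CPM (1.15 [0.79 to 1.53]). Hilpda was thus lower in NP in the class where it was highest. Monocytes had 19.9 and 21.9 CPM, with an interval that included 0.

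In endothelial cells the lower Hilpda level was found in each of the 3 clusters with at least 30 cells in both libraries. In the cluster led by Ptprb and Tek, 260 saline and 943 NP cells had 1047 and 767 CPM. The cluster led by Car4 had 588 and 465 CPM. In the shallow cluster led by Epas1 and Hpgd the level was 498 and 442 CPM, with an interval that included 0. The share of endothelial cells with a Hilpda UMI was 73.2% for saline and 64.4% for NP, and 51.7% and 42.4% after thinning to 1000 UMIs, which left out 42 saline and 135 NP cells. Summed neutrophil markers in the endothelial class were 22451 CPM for saline and 4803 CPM for NP, with all 15 markers detected, and the part of this in the Hilpda ratio was not tested.

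In stromal cells the mix of clusters differed between the libraries. The mural cluster led by Postn and Cox4i2 held 9 saline and 56 NP cells and had 587 and 626 CPM of Hilpda. The fibroblast cluster led by Inmt and Mfap4 held 93 and 137 cells and had 63.1 and 75.8 CPM. A further cluster, led by Hhip and Acta2, held 25 and 77 cells and had 72.9 and 138 CPM. With the NP clusters weighted to the saline mix the stromal Hilpda ratio was 0.35, below 2-fold. Summed endothelial markers in stromal cells were 1632 CPM for saline and 3796 CPM for NP, with all 16 detected, and their part in the ratio was not tested.

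Alveolar macrophages formed 1 cluster. Of its 165 saline cells 43.6% held a Hilpda UMI, and of its 221 NP cells 72.9%, at medians of 17271 and 19588 UMIs. After thinning to 1000 UMIs, which left out 1 saline and 2 NP cells, the shares were 7.32% and 10.5%. In B cells 17.2% of saline and 16.4% of NP cells held a Hilpda UMI, and 4.20% and 3.90% after thinning. Neutrophils, at 20.2% and 14.4% unthinned and 4.98% and 3.46% thinned, had shares close to those of B cells, whose pooled Hilpda level was 47.1 CPM for saline and 51.3 CPM for NP.

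**Figure D3:**
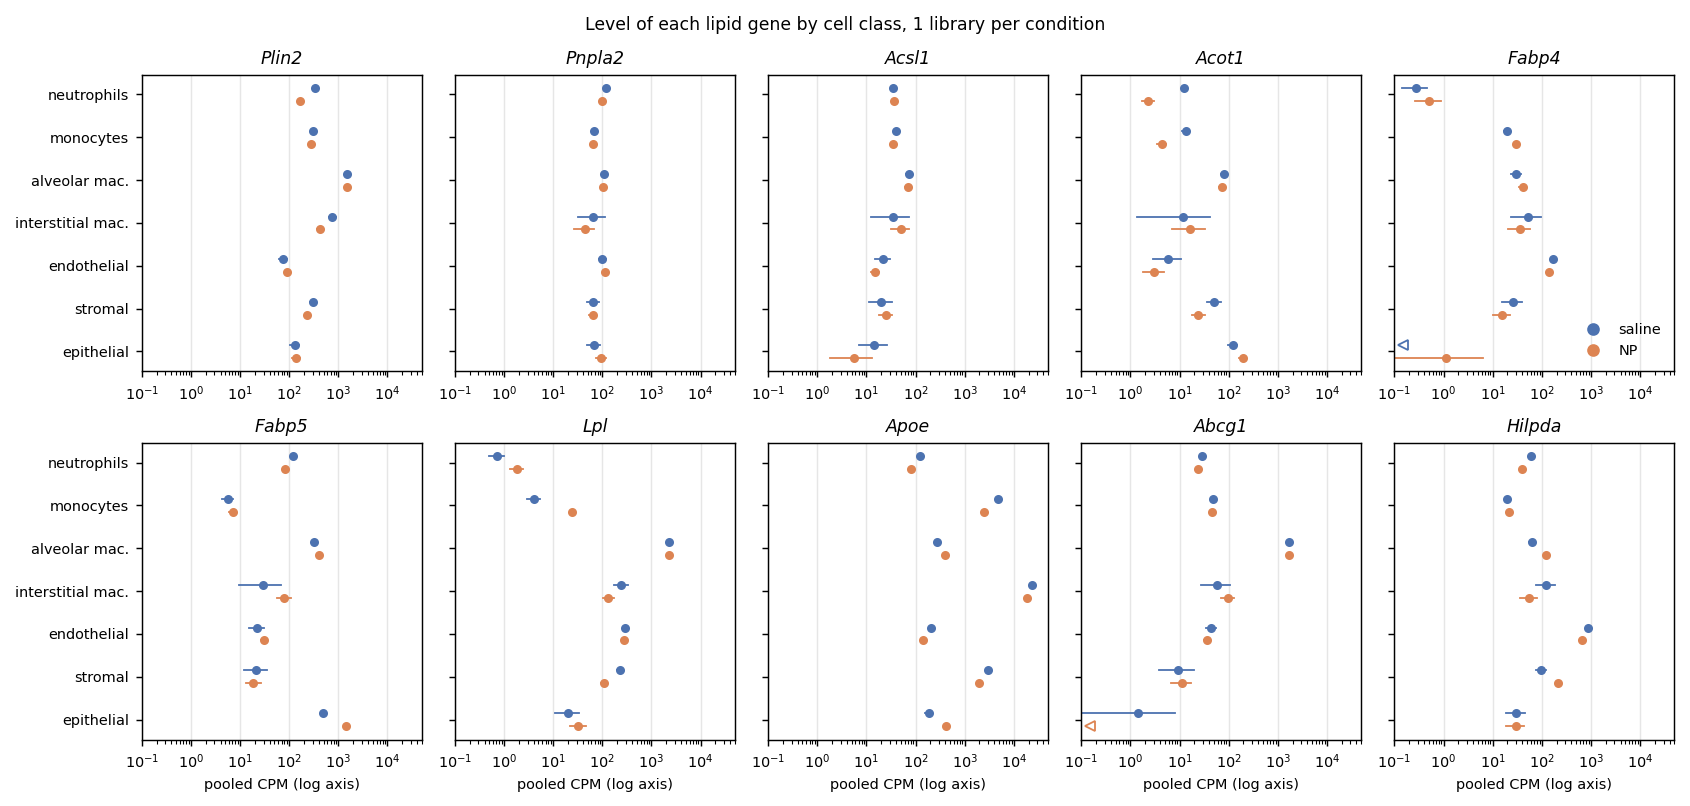
Level in CPM (log scale) of each of the 10 genes in each cell class for saline and NP, with exact 95% Poisson intervals as lines and open left-pointing triangles for a count of 0. Plin2, Lpl and Abcg1 were highest in alveolar macrophages (1497, 2258 and 1714 CPM in saline), Apoe in interstitial macrophages (23475 CPM), Hilpda in endothelial cells (881 CPM) and Fabp5 in epithelial cells (493 CPM).

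Acsl1 codes for a long-chain acyl-CoA synthetase that activates fatty acids for use. The gene spans chr8:46471037-46536051 (GRCm38, plus strand). In neutrophils the level was 35.2 CPM for saline and 35.7 CPM for NP (0.02 [-0.10 to 0.14]). With equal weight per cell the neutrophil ratio was -0.26. The 31 highest NP neutrophils held 22.6% of the Acsl1 UMIs of NP neutrophils, and the 57 highest saline neutrophils 13.3% of those in saline. The even pooled value also hid clusters that differed in sign. Acsl1 in the cluster led by Ngp, Ltf and Camp was 24.6 CPM for saline and 41.0 CPM for NP (0.74 [0.51 to 0.97]). In the other 5 clusters the ratio ran from -0.82 to -0.03, with 3 intervals below 0. Alveolar macrophages had the highest Acsl1 level of the 7 classes, 72.1 CPM for saline and 70.1 CPM for NP. Plasmacytoid dendritic cells, outside these classes, had 79.7 and 70.3 CPM, from 16 and 29 UMIs. Monocytes had 39.9 and 35.3 CPM (-0.17), and endothelial and stromal intervals included 0.

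Acot1 codes for a cytosolic acyl-CoA thioesterase, which splits acyl-CoA back to free fatty acid. Its gene lies at chr12:84009490-84018371 (GRCm38, plus strand), and in liver it is a known target of the fatty acid receptor PPAR alpha. Neutrophils had 589 Acot1 UMIs in saline and 55 in NP. The level was 12.2 CPM for saline and 2.28 CPM for NP, 0.186 of the saline level (-2.43 [-2.85 to -2.03]). Monocytes had 13.5 and 4.39 CPM, from 158 and 96 UMIs (-1.62 [-2.004 to -1.25]). In stromal cells it was 50.8 and 24.2 CPM, from 38 and 44 UMIs (-1.07 [-1.73 to -0.40]). The stromal Acot1 ratio was under 2-fold at -0.71 with equal weight per cell, -0.80 with predicted doublets removed and -0.93 at the saline mix of clusters. Few cells carried the transcript, 8.25% of saline and 1.68% of NP neutrophils. In B cells 1 of 476 saline cells held a UMI and 0 of 615 NP cells did, which allows a share of cells with a UMI of up to 0.488% (3 counts of the total).

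The classes with the highest Acot1 levels showed smaller differences. Epithelial cells had 120 CPM for saline and 193 CPM for NP (0.68 [0.29 to 1.07]), and among those with more Sftpc than Scgb1a1 the direction turned, with 213 and 192 CPM (-0.15). Alveolar macrophages had 81.4 and 72.9 CPM (-0.16 [-0.41 to 0.09]). In endothelial cells there were 10 saline and 19 NP UMIs and in interstitial macrophages 2 and 8, too few to read. Of all Acot1 UMIs in cells, neutrophils held 50.6% in saline and 7.60% in NP.

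Each of the 6 neutrophil clusters had the lower Acot1 level in NP, with 5 intervals below 0. Saline cells of the cluster led by Stfa2l1 and Stfa2 held 200 UMIs and its NP cells 1. Cells led by Hist1h4i and Il1b had 23.4 and 6.09 CPM (-1.94 [-2.73 to -1.24]), and that led by Prok2 and Retnlg 8.20 and 1.77 CPM (-2.21 [-3.37 to -1.25]). Acot1 in the cluster led by Ngp, Ltf and Camp was at 4.85 and 2.81 CPM (-0.79 [-1.57 to -0.05]). Counts were lowest in the cluster led by Cstdc4 and Wfdc17, with 9 and 0 UMIs, and in that led by Isg15 and Gbp2b, with 3 and 6 UMIs and an interval that included 0. The ratio was therefore smallest in size in the cluster of developing neutrophils among those that could be read.

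The monocyte clusters gave a like picture. Acot1 was lower in NP in 5 of the 5 monocyte clusters that had counts and at least 30 cells in both libraries, with 3 intervals below 0. In the cluster led by F13a1 and Vcan, which also had the classical monocyte gene Ly6c2 in its top 10, it was 20.1 CPM for saline and 9.05 CPM for NP (-1.15 [-1.78 to -0.53]). In the cluster led by Cd300e and Eno3, which also had the nonclassical monocyte genes Treml4 and Adgre4 in its top 10, there were 0 UMIs in either library. With the NP clusters weighted to the saline mix the monocyte ratio was -1.22.

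Acot1 shares much of its sequence with its neighbour Acot2, so that both levels are uncertain. Acot2, named here after its values were seen, had 137 UMIs in saline neutrophils and 28 in NP neutrophils (-1.30 [-1.94 to -0.70]).

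Of the genes lower in NP in all 6 neutrophil clusters, Plin2 and Acot1 had the lowest ratios over the class, and the sequence before their start sites is shown for that reason. RefSeq promoter windows (GRCm38.p6) matched 6 of the 10 genes, and Fabp4, Fabp5, Lpl and Abcg1 had no entry. Each line below holds 250 bases before the start site and 10 bases from it, 5′ to 3′ on the strand of the gene, at chr4:86670050-86670309 (minus strand) for Plin2 and chr12:84009252-84009511 (plus strand) for Acot1. Capitals mark motif matches.
Plin2: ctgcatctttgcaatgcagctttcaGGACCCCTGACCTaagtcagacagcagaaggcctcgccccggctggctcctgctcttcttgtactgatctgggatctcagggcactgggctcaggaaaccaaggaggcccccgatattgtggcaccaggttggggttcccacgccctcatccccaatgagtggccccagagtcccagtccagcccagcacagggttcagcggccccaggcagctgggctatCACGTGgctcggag
Acot1: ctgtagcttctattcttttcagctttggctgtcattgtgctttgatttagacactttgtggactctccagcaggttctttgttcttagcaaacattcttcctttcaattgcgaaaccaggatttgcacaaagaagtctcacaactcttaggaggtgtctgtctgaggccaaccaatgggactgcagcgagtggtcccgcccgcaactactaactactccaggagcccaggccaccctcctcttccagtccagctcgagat

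The motifs searched, on both strands, were the direct repeat 1 bound by PPAR and RXR pairs, with up to 2 mismatches, and ACGTG, the core bound by hypoxia-inducible factors. The Plin2 window held 1 direct repeat 1 match, on the strand opposite to the gene with 2 mismatches, 225 bases before the start site. It also held ACGTG on both strands, in overlapping matches that began 4 and 3 bases before the start site. Both lay in the single stretch CACGTG, which reads the same on both strands and runs across the start site. The Acot1 window held neither motif. A direct repeat 1 match stood in 3.86% of the 32851 promoter windows and ACGTG in 19.6%. One Hilpda window held ACGTG, 43 bases before its start site. A match is a description of the letters only.

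Fabp4 and Fabp5 code for small cytosolic carriers of fatty acids, the first known from adipocytes, macrophages and endothelium and the second from skin and macrophages. Fabp4 lies at chr3:10204088-10208576 (minus strand) and Fabp5 at chr3:10012548-10016607 (plus strand, both GRCm38). Fabp4 was near 0 in neutrophils, with 13 saline and 12 NP UMIs. In monocytes it was 19.5 CPM for saline and 30.2 CPM for NP (0.63 [0.41 to 0.86]). This value did not hold within its main source. Cells led by Cd300e and Eno3 held 215 UMIs of 228 in saline and 565 of 661 in NP, and there the level was 349 CPM for saline and 185 CPM for NP (-0.91 [-1.14 to -0.68]). That cluster had 91 saline and 349 NP cells, and with the NP clusters weighted to the saline mix the monocyte Fabp4 ratio was -0.69.

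In endothelial cells Fabp4 was 171 CPM for saline and 138 CPM for NP (-0.31 [-0.51 to -0.11]), but few cells carried it. One saline cell held 213 of the 287 UMIs, 74.2%, and 1 NP cell held 252 of the 858, 29.4%. A small cluster led by Ccl21a, Mmrn1 and Prox1, genes of lymphatic endothelium, had 6 saline and 21 NP cells with 267 and 695 of these UMIs, at 11245 and 6721 CPM. Without the highest cell of each library the endothelial ratio was 1.14. In alveolar macrophages Fabp4 had 87 UMIs in saline and 175 in NP (0.44 [0.06 to 0.83]).

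Fabp5 in neutrophils was 117 CPM for saline and 80.4 CPM for NP (-0.54 [-0.61 to -0.46]), lower in 6 of 6 clusters, with 5 intervals below 0. In alveolar macrophages it was higher in NP, 318 and 408 CPM (0.36 [0.24 to 0.48]). Monocytes had a low level, 5.56 and 7.04 CPM, and in endothelial cells 22.0 and 31.0 CPM, both with intervals that included 0. Fabp5 thus differed in opposite directions in neutrophils and alveolar macrophages.

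In epithelial cells Fabp5 was 493 CPM for saline and 1406 CPM for NP (1.51 [1.34 to 1.69]), and the share of cells with a UMI was 44.4% and 86.0%. Among the cells with more Sftpc than Scgb1a1 UMIs Fabp5 was 989 CPM for saline and 1488 CPM for NP (0.59), under 2-fold. The other 29 saline and 6 NP cells held 1 and 0 Fabp5 UMIs. The median mitochondrial share in the class was 0.595% for saline and 4.96% for NP, and its part in these ratios was not tested.

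Lpl codes for lipoprotein lipase, which is secreted and cuts triglyceride in lipoproteins at the vessel wall. Its gene lies at chr8:68880491-68907448 (GRCm38, plus strand). Alveolar macrophages had the highest Lpl level, 2258 CPM for saline and 2279 CPM for NP (0.01 [-0.03 to 0.06]), and held 87.1% of all Lpl UMIs in saline cells and 77.5% in NP cells. Endothelial cells also had like levels, 283 and 276 CPM (-0.04 [-0.19 to 0.11]). In monocytes Lpl was 4.02 CPM for saline and 24.4 CPM for NP, from 47 and 533 UMIs (2.60 [2.17 to 3.06]), a ratio of 6.06. It was the highest of the measured ratios of the 10 genes over the 7 classes.

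Most Lpl UMIs of monocytes came from 2 clusters. In the cluster led by Aif1 and Tmem51, with 118 saline and 379 NP cells, Lpl was 10.1 CPM for saline and 42.2 CPM for NP (2.07 [1.36 to 2.87]). That led by Cd300e and Eno3 had 25.9 and 79.2 CPM (1.61 [0.88 to 2.44]). In the other 4 clusters with at least 30 cells in both libraries there were at most 9 UMIs in saline and 21 in NP in any 1 cluster, and no interval lay above 0. With the NP clusters weighted to the saline mix the ratio was 1.55. The share of monocytes with an Lpl UMI was 3.06% for saline and 8.69% for NP, and B cells had 0.420% and 1.46%. After thinning to 1000 UMIs, 3 of 784 saline monocytes held an Lpl UMI (0.383%) and 22 of 1485 NP monocytes did (1.481%), against 0.420% and 0.163% of B cells. Few cells carried most of the UMIs. The 8 highest saline monocytes held 63.8% and the 15 highest NP monocytes 49.7%, with at most 38 UMIs in 1 cell, where the alveolar macrophages with a UMI had medians of 35.5 and 40 UMIs. Without the highest cell of each library the monocyte Lpl ratio was 2.73. Summed alveolar macrophage markers in monocytes were 67.6 CPM for saline and 104 CPM for NP, where alveolar macrophages themselves had 6539 and 6750 CPM, and their part in the Lpl ratio was not tested.

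In neutrophils Lpl was 0.706 CPM for saline and 1.82 CPM for NP, from 34 and 44 UMIs (1.37 [0.69 to 2.06]). The share of neutrophils with a UMI, 0.570% and 1.29%, was close to the B cell shares given above, which were taken at another depth. With free RNA subtracted too few UMIs were left to read, and the part of free RNA in this ratio was not tested. In stromal cells Lpl was lower in NP, 227 CPM for saline and 107 CPM for NP (-1.09 [-1.40 to -0.79]). The difference lay in the fibroblast cluster led by Inmt and Mfap4, which went from 287 to 114 CPM (-1.33 [-1.72 to -0.94]). By contrast, that led by Hhip and Acta2 had 78.5 and 78.0 CPM and that led by Postn and Cox4i2 130 and 136 CPM. Weighted to the saline mix the stromal ratio stayed at -1.09. With each cell given equal weight it was -0.71, and with classes from each cell's marker score -0.53, both under 2-fold. In interstitial macrophages Lpl was 242 and 132 CPM (-0.87 [-1.45 to -0.27]), where 1 saline cell held 32 of 42 UMIs, and without the highest cell of each library the ratio was 0.93.

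Apoe codes for apolipoprotein E, the lipoprotein component that macrophages secrete with cholesterol. Its gene lies at chr7:19696109-19699188 (GRCm38, minus strand). Monocytes held 72.6% of all Apoe UMIs in saline cells and 68.8% in NP cells. Their Apoe level was 4762 CPM for saline and 2481 CPM for NP, from 55679 and 54275 UMIs (-0.94 [-0.96 to -0.92]). Interstitial macrophages had the highest level, 23475 and 18478 CPM (-0.35 [-0.40 to -0.29]). In stromal cells Apoe was 3002 and 1984 CPM (-0.60, but -0.05 with classes from each cell's marker score), and in neutrophils 124 and 81.8 CPM (-0.60). Over the alternatives the neutrophil Apoe ratio ran from -0.68 with free RNA subtracted to -0.14 with more detected genes required in each cell. The 57 highest saline neutrophils held 30.1% of the Apoe UMIs of saline neutrophils, and the 31 highest NP neutrophils 32.4% of those in NP. The size of the neutrophil Apoe ratio thus depended on the settings. In endothelial cells Apoe was 211 and 144 CPM (-0.55), but 1 saline cell held 119 of 355 UMIs, and without the highest cell of each library the ratio was -0.06. The share of endothelial cells with an Apoe UMI was 17.5% for saline and 18.6% for NP. The endothelial Apoe ratio thus rested on 1 cell.

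Alveolar macrophages differed from monocytes in sign, with 272 CPM for saline and 390 CPM for NP (0.52 [0.39 to 0.64]). Few of them carried Apoe, 44 of 165 saline and 70 of 221 NP cells. The highest saline cell held 144 of the 789 UMIs (18.3%) and the highest NP cell 144 of 1673 (8.61%). Over the alternatives the ratio ran from 0.11 at the 10% mitochondrial limit to 0.68 with the highest cell left out in each library. In epithelial cells Apoe was 184 and 426 CPM (1.21 [0.92 to 1.51]), and among cells with more Sftpc than Scgb1a1 it was 324 and 450 CPM (0.48).

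Within monocytes Apoe was lower in NP in 6 of 6 clusters, each with an interval below 0. The ratio was lowest in the cluster led by Chil3 and Ccr2, with 319 saline and 67 NP cells, from 5385 to 2018 CPM (-1.42). It was highest in the cluster led by F13a1 and Vcan, from 1102 to 811 CPM (-0.44). With the NP clusters weighted to the saline mix the monocyte Apoe ratio was -1.16, past 2-fold. The cluster led by Aif1 and Tmem51 had 8419 and 3639 CPM (-1.21), and that led by the interferon-induced genes Ifi204 and Ifi44, with 38 saline and 266 NP cells, had 6376 and 3245 CPM. The share of monocytes with an Apoe UMI was 92.5% for saline and 83.8% for NP, and 75.1% and 58.7% after thinning to 1000 UMIs. B cells had 58.0% and 59.0% unthinned and 32.1% and 32.4% thinned. The share of neutrophils with an Apoe UMI, 21.7% and 17.4%, lay below that of B cells.

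In stromal cells the fibroblast cluster led by Inmt and Mfap4 had 2882 CPM of Apoe for saline and 3080 CPM for NP, and that led by Hhip and Acta2 had 4118 and 1778 CPM (-1.21). The mural cluster led by Postn and Cox4i2 had 2 and 34 Apoe UMIs, too few in saline to read. The stromal Apoe ratio thus came with a different mix of clusters as well as a lower level in 1 of them. In barcodes with under 50 UMIs, which hold free RNA, Apoe was at 1244 CPM for saline and 1533 CPM for NP. The share of free RNA estimated from epithelial secretory genes was 1.60% and 1.10% of neutrophil UMIs and 0.777% and 0.669% of monocyte UMIs.

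Abcg1 codes for a transporter that moves cholesterol out of macrophages to lipoprotein particles. Its gene lies at chr17:31057675-31117988 (GRCm38, plus strand). Alveolar macrophages had the highest level, 1714 CPM for saline and 1666 CPM for NP (-0.04 [-0.09 to 0.01]), and held 67.1% and 75.4% of its UMIs in cells. The monocyte level was 46.9 and 45.8 CPM (-0.04 [-0.19 to 0.12]), although Apoe in the same cells differed by -0.94. In neutrophils it was 28.1 and 24.3 CPM (-0.21 [-0.35 to -0.07]) and in endothelial cells 43.5 and 35.7 CPM (-0.29), the latter with an interval that included 0. No class with at least 50 UMIs had Abcg1 2-fold apart.

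**Figure D4:**
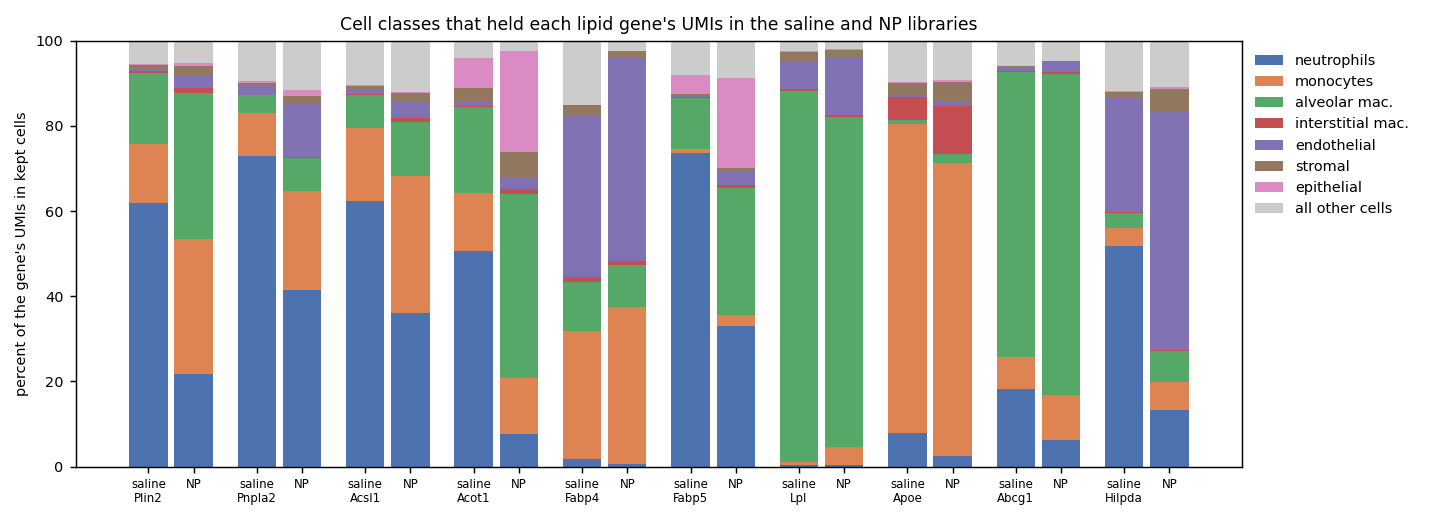
Share of all UMIs of each gene in cells (percent) that lay in each cell class, for saline and NP. Neutrophils held 62.0% of Plin2 UMIs in saline and 21.7% in NP, and alveolar macrophages held 87.1% and 77.5% of Lpl UMIs.

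Other genes of lipid handling were taken as 8 lists with 88 genes in all, which covered droplet coats and lipolysis, fatty acid activation, triglyceride and fatty acid synthesis, uptake and binding, cholesterol efflux, sterol synthesis, mitochondrial oxidation and nuclear receptors. In neutrophils 65 of them were measured, with 3 at least 2-fold higher and 3 lower. In alveolar macrophages 72 were measured and none was apart. In endothelial cells 60 were measured, with 0 higher and 1 lower, which was G0s2, an inhibitor of the lipase of Pnpla2, at 241 CPM for saline and 79.5 CPM for NP (-1.60). Summed neutrophil markers in endothelial cells were 22451 CPM for saline and 4803 CPM for NP, G0s2 was at 2308 CPM in saline neutrophils, and their part in the endothelial G0s2 ratio was not tested. These counts stand beside the shares of all measured genes given above for each class.

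In neutrophils Lrp1 (-1.28), a receptor for lipoprotein remnants, and Scarb1 (-1.31), a receptor for high density lipoprotein, were lower in NP. Gpihbp1, which holds lipoprotein lipase on capillaries, was 1.72 CPM for saline and 4.92 CPM for NP in neutrophils (1.52), while summed endothelial markers there were 22.3 and 47.8 CPM, and their part in that ratio was not tested.

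In monocytes 71 were measured, with 6 higher and 0 lower, where 2.46% of all measured genes were higher and 0.743% lower. The 10 sterol synthesis genes had a median log2 ratio of 0.71, where that of all measured genes in monocytes was -0.03, and 2 of them were 2-fold higher, Sqle (1.56) and Idi1 (1.20), which code for enzymes on the path to cholesterol. Nr1h3, the gene of the sterol receptor LXR alpha, which drives Abcg1 and Apoe in macrophages, was higher in NP (2.12). Pparg (1.12), the gene of a fatty acid receptor, and Cd36 (1.21), the gene of a fatty acid and lipoprotein receptor, were higher too. Weighted to the saline mix of clusters these ratios were 1.18 for Sqle, 0.97 for Idi1, 1.25 for Nr1h3, 0.21 for Pparg and 0.05 for Cd36, so that Idi1, Pparg and Cd36 were under 2-fold at a fixed mix. The pooled monocyte ratios of Apoe and Abcg1 themselves were -0.94 and -0.04.

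In stromal cells 51 were measured, with 3 higher and 0 lower, where 4.76% of all measured genes were higher and 2.09% lower. Among the 3 were Cd36 (1.11) and Gpihbp1 (1.49), which were 0.38 and 0.59 at the saline mix of clusters. Summed endothelial markers in stromal cells were 1632 CPM for saline and 3796 CPM for NP, and their part in these ratios was not tested. In epithelial cells 45 were measured, with 17 higher and 1 lower, where 12.5% of the 3258 genes measured in the class were higher and 2.49% lower. The median log2 ratio over all measured genes was 0.36 there. Synthesis genes made up most of the 17 higher genes. Of the triglyceride and fatty acid synthesis list 7 of 9 measured genes were 2-fold higher, among them Elovl1 (1.35), Fasn (1.19) and Scd1 (1.38), and of the sterol synthesis list 6 of 10. These stand beside the different make-up of the epithelial class given above. They were not recomputed among cells with more Sftpc than Scgb1a1, and the part of the make-up in them was not tested. In interstitial macrophages 16 were measured, with 0 higher and 2 lower, where 2.71% of all measured genes were higher and 2.54% lower.

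The genes with the most similar pattern were found by Pearson correlation of log2(CPM + 10) over 18 profiles, each 1 cell class in 1 library, across 12401 genes. The profiles share libraries and cell numbers, and the values are given as a description. Lpl was most like Mertk (r = 0.99), Abcg1 like Klhdc4 (0.97), Plin2 like Trf (0.96) and Hilpda like Sema6d (0.96). Fabp4 was most like Cmtm3 (0.95), Acot1 like Epb41l1 (0.94) and Acsl1 like C9orf72 (0.93). Pnpla2 was most like Map2k3, Apoe like Atf3 and Fabp5 like Cdh1 (0.91 each). Among the 10 genes the closest pair was Acot1 and Fabp5 (0.81), followed by Plin2 and Acsl1 (0.76) and by Fabp4 and Hilpda (0.76).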

How the data were processed

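The deposited matrices hold raw UMI counts per gene for all barcodes, as the authors left them, with no normalization. The submitters' processing notes name bcl2fastq, Cell Ranger 6.0 and the mm10 genome, while the matrix header names another version of Cell Ranger. Free barcodes were kept out of cells by the limits given above. Levels were computed as pooled CPM, ratios with Clopper-Pearson intervals on the conditional split of counts, and levels with exact Poisson intervals. Cells were log-normalised to 10000 UMIs, clustered on 2000 variable genes without the lipid genes, 30 components, 20 neighbors and Leiden resolution 1 (Python 3.11.15, scikit-learn 1.9.0, leidenalg 0.10.2, scipy 1.17.1), and mononuclear phagocytes were clustered again. A cluster was named where its marker score and leading genes did not conflict, and predicted doublets (Scrublet in scanpy 1.11.5) were kept. Barcodes shared by the 2 libraries numbered 21. Shares of cells with a UMI were also taken after thinning each cell to 1000 UMIs. The ratio code was tested on simulated data. The members and lists were chosen with earlier results of these data known. Named genes were the 10 members, the 3 genes most similar to each (the nearest is printed), and genes of the wider lists at least 2-fold apart with at least 200 UMIs, from which a selection is printed. With 1 library per group no test was made. Alternatives are given in the closing section.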

Additional observations from a re-analysis of the deposited data

How the results depend on the processing

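No paired analysis was possible because each group had 1 library, and for the same reason no replicate could be left out. The count of genes at least 2-fold apart depended on settings in each of the 7 classes, while no ratio reported as at least 2-fold apart changed sign. Ratios under 2-fold did: that of Lpl in interstitial macrophages ran from -1.22 at resolution 2 to 1.00 with the marker score, and that of Fabp4 in endothelial cells from -0.59 to 1.36. In neutrophils the count of 2 became 1 with at least 200 UMIs required, since Lpl was then not read, and 3, through Plin2 at -1.001 to -1.03, with a higher limit on detected genes, the marker score, equal weight per cell or the saline mix. With free RNA subtracted Lpl was not read but Plin2 passed 2-fold. In monocytes 2 became 3, through Apoe, with a limit of 200 detected genes, resolution 0.5 or 2, or the saline mix (-1.16). In stromal cells the count of 3 became 1 with a limit of 200 detected genes, with predicted doublets removed (2.64% of saline and 3.73% of NP cells), or with NP clusters weighted to the saline mix, and 0 with equal weight per cell. It was 2 with the 5% mitochondrial limit, resolution 0.5 or 2, the lipid genes kept in the clustering, the marker score or at least 200 UMIs required. In alveolar macrophages the count of 0 became 1, Hilpda, with a 5% mitochondrial limit (1.23), doublets removed (1.08) or the highest cell left out (1.02). In interstitial macrophages 0 became 1 with the 5% limit, resolution 2, classes from each cell's marker score or equal weight, and 2 with at least 20 UMIs. In endothelial cells 0 became 1 with the 5% limit (Apoe, -1.02), doublets removed (Fabp4, 1.36), the marker score or the highest cell left out (Fabp4, 1.14). In epithelial cells 2 became 1 with the marker score and 0 among cells with more Sftpc than Scgb1a1. The cause was not tested where the setting does not itself show it. Over all alternatives the log2 ratio of Acot1 ran from -2.56 to -2.29 in neutrophils and from -1.78 to -1.22 in monocytes, that of Lpl in monocytes from 1.55 to 2.76, that of Plin2 in neutrophils from -1.03 to -0.86, and that of Apoe in monocytes from -1.16 to -0.91. The cluster weighting, the Sftpc split and leaving out the shallow endothelial cluster were chosen after seeing the data. Free RNA subtraction was not run for epithelial cells, because it was scaled on their secretory genes. The ratios of the wider lists were recomputed only at the saline mix of clusters, and those of epithelial cells not at all. Values rest on 1 pool per group.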
